A study of Homo sapiens with 15 samples.

Results

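Thymoquinone (TQ), free or bound in a hybrid, was given to the cells in 9 of the 15 samples. These were set against the 6 samples that received none. The TQ-bearing samples were the 3 of TQ (40 µM), the 3 of Combi (35 µM TQ beside 35 µM 5-fluorouracil, 5-FU) and the 3 of SARB (35 µM), a hybrid in which TQ and 5-FU are joined by esterification per the study's methods. The samples without TQ were the 3 untreated controls (Ctr) and the 3 of 5-FU alone (15 µM). All were HCT116, an established human colorectal carcinoma line, collected 24 h after treatment. No vehicle is named for Ctr, although the methods dissolved every compound in dimethyl sulfoxide. The members were chosen from the treatment labels alone, and each group mean entered with equal weight. TQ and Combi were counted as free TQ (6 samples) and SARB as bound TQ (3 samples). Because 2 of the 3 TQ-bearing groups held 5-FU against 1 of the 2 groups without TQ, 16.7% of any change that 5-FU made alike in all its groups stayed in this difference, and a second weighting, balanced for 5-FU, was computed beside it. That weighting averaged TQ minus Ctr with the mean of Combi and SARB minus 5-FU. Doses of 5-FU differed between its groups, so the balance was approximate.

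TQ is the main quinone of black cumin oil. Quinones of this kind react with thiol groups of proteins and enter redox cycles, and they are known to call on chaperones and on stress-activated kinases, whose end points include the AP-1 factor FOS and the interleukin gene IL8. The ERK kinases switch on their own phosphatases, among them DUSP5 and DUSP6. 5-FU starves cells of thymidylate and damages DNA and RNA, after which p53 switches on genes such as CDKN1A, SFN and FAS.

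The PanCancer Pathways panel counts 730 endogenous and 40 housekeeping transcripts without amplification. Endogenous counts summed to 135017 to 607782 per sample in the TQ-bearing groups and to 220040 to 261686 in the others. Counts were scaled to an equal geometric mean of the housekeeping genes ("scaled counts"). The background, the mean of the 8 negative probes plus 2 SD, was passed by 447 to 599 genes per sample. Scaled negative probes averaged 2.84 to 14.5 in the TQ-bearing samples and 7.46 to 18.3 in the others, a log2 ratio of -0.81, which is given beside genes near background. Of 11 epithelial markers on the panel, 10 lay above background in all 15 samples, with summed scaled counts of 5483 to 16756 without TQ and 6042 to 15638 with it. None of 10 mesenchymal markers lay above background in all samples and 6 did in none, with sums of 106 to 161 without TQ and 54.8 to 176 with it. Of 12 haematopoietic and endothelial markers, 1 lay above background in all samples, with sums of 246 to 411 and 197 to 417. Cartridge was taken from the run named in each sample's description. By this reading all samples of TQ, 5-FU and SARB shared the first of 3 cartridges with Ctr replicate 1 only. Ctr replicates 2 and 3 and Combi replicate 1 ran on the second, and the other Combi samples on the third. The 3 samples of a group are called biological replicates with no word on separate experiments, so the p-values measure the spread between these samples.

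Calls needed a fold of 1.5 or more besides an adjusted p no higher than 0.05. Against the samples without TQ, the TQ-bearing samples had 11 genes called higher (1.51% of 730) and 21 called lower (2.88%), tested in edgeR by quasi-likelihood, with p-values adjusted over all 730 genes after Benjamini and Hochberg. FOS, IL8, THBS1 and HSPA1A led the higher genes with log2 differences of 1.65, 1.43, 1.15 and 0.90, and the secreted WNT inhibitor gene DKK4 led the lower ones with -1.24. The median of all genes was -0.20 on the log2 scale. After TMM normalization, which centers that median at 0.00, 30 genes were called higher and 7 lower, so the split of the calls turned with the scaling. Every one of the 11 was called after TMM too, but 7 of the 21 were. DUSP5, FOS, GADD45B, IL8 and THBS1 among the higher genes, and KITLG among the lower ones, were called under each of 9 alternative settings. Among these settings, the first cartridge alone held no Combi sample and 1 Ctr sample. The count of lower genes also turned on single samples: it was 12 without Ctr replicate 3 or 5-FU replicate 3, 13 without TQ replicate 2, 5-FU replicate 2 or Combi replicate 3, 32 without Combi replicate 1, 35 without Ctr replicate 1 and 79 without SARB replicate 2. With the balanced weighting, 10 genes were called higher (1.37%) and 31 lower (4.25%), or 23 and 7 after TMM. Each value is a mean over the cells of a culture, in which fewer expressing cells and less RNA per cell cannot be told apart.

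**Figure D1:**
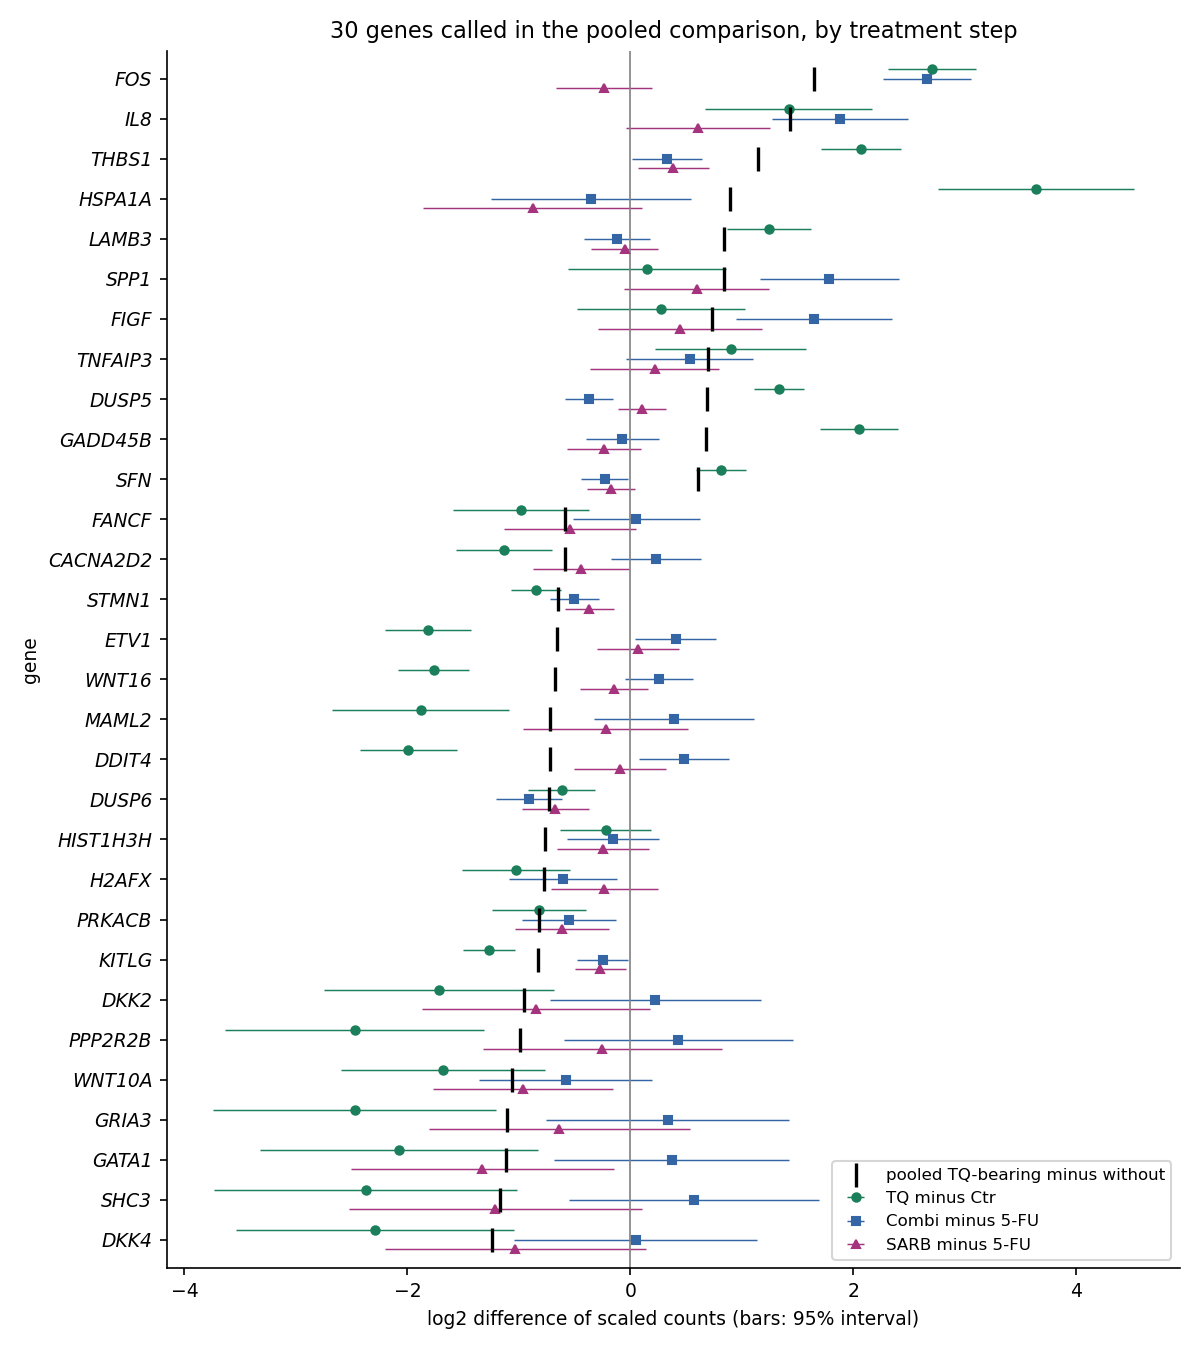
Log2 differences of 30 called genes, with the pooled TQ-bearing difference as a black bar, TQ minus Ctr as circles, Combi minus 5-FU as squares and SARB minus 5-FU as triangles, each with its 95% interval. Combi minus 5-FU and SARB minus 5-FU share the 5-FU samples. FOS stands far right in both free TQ steps and left of 0 in SARB, whereas DUSP6 stands left of 0 in all 3.

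DUSP6, the cytoplasmic phosphatase that ERK induces and that in turn dephosphorylates ERK, was lower with each TQ-bearing treatment. Its scaled counts were 2021, 1291 and 2251 in Ctr and 1931, 1884 and 1805 in 5-FU. They were 1203, 1306 and 1109.6 in TQ, 1017, 971 and 1002 in Combi and 1251, 1100.1 and 1173 in SARB. The 9 TQ-bearing samples lay below 5 of the other 6, while Ctr replicate 2 lay just under TQ replicate 2. The pooled log2 difference was -0.73 (SE 0.09, adjusted p = 8.52e-06 from edgeR), and -0.53 after TMM, short of the fold asked for. The steps were -0.62 from Ctr to TQ, -0.91 from 5-FU to Combi and -0.67 from 5-FU to SARB. 5-FU itself differed from Ctr by 0.02 (95% interval -0.28 to 0.31). Of 730 genes, DUSP6 was the 1 (0.137%) called lower in all 3 steps by edgeR, none was called higher in all 3, and the last 2 steps share the 5-FU samples. The all-step call was fragile: after TMM the steps of TQ and SARB were -0.15 and -0.52 (adjusted p = 0.546 and 0.283), with cartridge as a block the Combi step was -0.69 (adjusted p = 1), and it was lost without any 1 of 7 samples. These were Ctr replicate 1 or 3 (TQ step -0.55 and -0.45), TQ replicate 3 (-0.56), 5-FU replicate 1 or 2 (SARB step -0.65 and -0.67) and SARB replicate 2 or 3 (-0.63 and -0.67).

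STMN1, ITGB8 and H3F3C were the 3 genes (0.411%) whose 9 TQ-bearing samples all lay below the other 6. STMN1 encodes stathmin, which destabilizes microtubules in dividing cells. Its scaled counts were 4048, 4149 and 4217 in Ctr, 2887, 2899.6 and 3146 in 5-FU, 2291, 2349.9 and 2274 in TQ, 2393, 1973 and 1941 in Combi and 2449.9, 2441 and 2037 in SARB. The pooled log2 difference was -0.65 (SE 0.07, adjusted p = 6.47e-07 from edgeR). After TMM it was -0.45 (adjusted p = 0.00048 from edgeR), below the fold asked for. The steps were -0.84 for TQ, -0.50 for Combi and -0.37 for SARB, of which only the TQ step was called. ITGB8, an integrin subunit, ranged from 147 to 233 (median 184) with TQ and from 252 to 313 (median 271) without it (pooled log2 -0.58, adjusted p = 5.85e-05 from edgeR, just short of the fold). H3F3C, a histone H3 variant gene whose counts may include reads of near-identical H3 genes, had a pooled log2 difference of -0.41 (adjusted p = 0.000155 from edgeR).

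**Figure D2:**
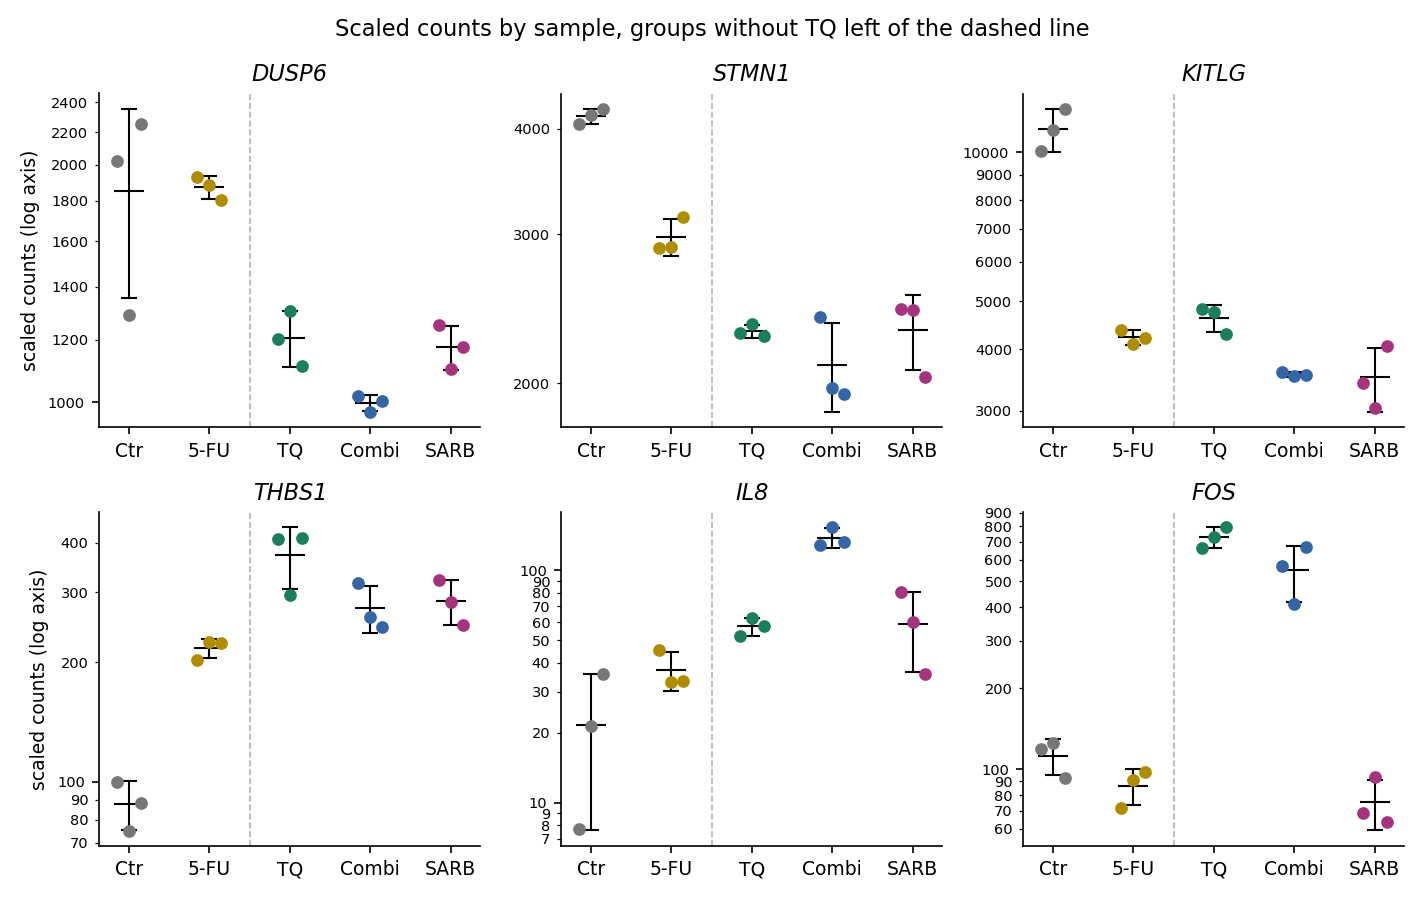
Scaled counts of 6 genes in every sample, on log axes, with the mean and the SD of the 3 samples as bars, and the groups without TQ left of the dashed line. All TQ-bearing samples lie below the others in STMN1 and above them in THBS1, while FOS is high in TQ and Combi and not in SARB.

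THBS1, which encodes the secreted adhesion glycoprotein thrombospondin 1, was the 1 gene (0.137%) whose 9 TQ-bearing samples all lay above the other 6. Its scaled counts were 99.9, 75.2 and 88.1 in Ctr and 203, 225 and 224 in 5-FU. They were 409, 295 and 411 in TQ, 316, 259 and 246 in Combi and 322, 283 and 248 in SARB. The pooled log2 difference was 1.15 (SE 0.11, adjusted p = 2.06e-07 from edgeR). The step from Ctr to TQ was 2.07 and was called, while 5-FU alone stood 1.31 above Ctr and the steps from there to Combi and SARB, 0.33 and 0.39, were not called. The mean step on 5-FU minus the step alone was -1.71 (adjusted p = 1.33e-05 from edgeR).

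IL8 (current symbol CXCL8), the neutrophil-attracting chemokine gene, was called higher in both steps of free TQ. Its scaled counts were 7.69, 21.5 and 35.9 in Ctr, 45.6, 33.1 and 33.4 in 5-FU, 52.2, 62.5 and 57.6 in TQ, 128, 154 and 133 in Combi and 80.5, 59.9 and 35.9 in SARB. All Combi samples lay above every sample of the other groups, and SARB replicate 3 overlapped with Ctr and 5-FU. No Combi sample shared a cartridge with a 5-FU sample. With cartridge as a block only 1 gene of the panel was called higher in the Combi step. The pooled log2 difference was 1.43 (SE 0.22, adjusted p = 8.9e-05 from edgeR), with steps of 1.42 for TQ, 1.88 for Combi and 0.61 for SARB, the last not called (95% interval -0.04 to 1.25). IL8 lay above background in 12 samples, and its steps ran against the fall of the scaled negative probes. TNFAIP3, which encodes the NF-kB inhibitor A20, had a pooled difference of 0.69 (adjusted p = 0.0196 from edgeR) from means of 26.5 ± 10.6 in Ctr (SD, n = 3), 47.9 ± 6.5 in 5-FU, 52.2 ± 17.8 in TQ, 70.1 ± 15.5 in Combi and 55.7 ± 5.71 in SARB. That call was lost without Ctr replicate 2 (0.56), without 5-FU replicate 2 or 3 and with counts under 20 set to 20 (0.56). On the first cartridge, which held no Combi sample and 1 Ctr sample, the value was 0.56, short of the fold.

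SPP1 and FIGF were higher mainly in Combi. SPP1 encodes the secreted integrin ligand osteopontin, and its scaled counts were 62.6, 60.4 and 66.0 in Combi against 13.6 to 24.8 (median 17.5) in the samples without TQ. In TQ they were 17.4, 23.6 and 18.2 and in SARB 31.7, 30.0 and 22.3. The pooled difference was 0.84 (adjusted p = 0.00943 from edgeR), and the Combi step of 1.78 was the only step called. The pooled call was lost with counts under 20 set to 20 (0.52, adjusted p = 0.105 from edgeR). The first cartridge held no Combi sample, so its value of 0.50 came from TQ and SARB and cannot speak to the rise in Combi. FIGF (VEGFD), a lymphatic growth factor gene, behaved likewise, with 42.4, 48.7 and 46.8 in Combi, 21.8, 20.3 and 25.8 in TQ and 18.9, 26.4 and 16.2 in SARB against 11.1 to 21.5 (median 17.1) without TQ. Its pooled difference of 0.73 (adjusted p = 0.037 from edgeR) was lost with the balanced weighting (0.66), with cartridge as a block (0.70, adjusted p = 0.0878) and without any 1 of 7 samples. No Combi sample shared a cartridge with a 5-FU sample, so the Combi step and the cartridge cannot be told apart within any 1 cartridge.

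FOS separated free from bound TQ. Its scaled counts were 666, 730.0 and 794 in TQ and 568, 411 and 669 in Combi. In SARB they were 68.6, 93.5 and 63.4, within or below the range of Ctr (118, 125 and 92.6) and 5-FU (71.6, 91.1 and 97.6). All 6 free TQ samples thus lay above all 9 other samples. The steps were 2.70 for TQ (SE 0.19), 2.66 for Combi (SE 0.19) and -0.24 for SARB (SE 0.21). The Combi step has the same cartridge limit as that of IL8. The pooled 1.65 thus averaged steps that were called and one that was not. Free minus bound TQ was 3.11 (adjusted p = 4.57e-11 from edgeR).

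HSPA1A and GADD45B were higher in TQ alone. HSPA1A encodes the stress-inducible HSP70, and its counts may include those of the near-identical HSPA1B. Scaled counts were 369.9, 225 and 293 in TQ, 15.1, 29.5 and 32.5 in Combi and 24.9, 37.1 and 4.37 in SARB, against 18.8 to 40.2 (median 25.7) in the samples without TQ. The step from Ctr to TQ was 3.64 (SE 0.42), whereas the steps to Combi and SARB were -0.35 and -0.88 and were not called. The pooled 0.90 (adjusted p = 0.0477 from edgeR) came from 1 of the 3 TQ-bearing groups, and it was lost without any 1 of 12 samples, at 0.69 to 0.96, and with cartridge as a block (0.61, adjusted p = 0.361). GADD45B, a stress-induced activator of p38 and JNK signaling, had 688, 520.1 and 588 in TQ, 207, 186 and 230.5 in Combi and 197, 189 and 172 in SARB, against 119.6 to 243 (median 188) without TQ. Its step was 2.05 for TQ and -0.07 and -0.24 for Combi and SARB. The mean step on 5-FU minus the step alone was -4.25 for HSPA1A and -2.21 for GADD45B (adjusted p = 3.55e-05 and 5.22e-07 from edgeR).

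The 250 bases before the start sites of FOS, IL8, HSPA1A and DUSP6 are shown because these genes carry the patterns above: high with free TQ only, high with both free TQ treatments and pooled with SARB, high with TQ alone, and low in all 3 steps. They come from RefSeq (GRCh38.p14) and read 5′ to 3′ on the gene's strand. Capitals mark matches to TGACTCA (AP-1), TGANNNNGC (antioxidant response), GAANNTTC or the reverse order, TTC and GAA parted by NN (heat shock) and TGACGTCA (cyclic AMP response), searched on both strands.
FOS, chr14:75278578-75278827, plus strand: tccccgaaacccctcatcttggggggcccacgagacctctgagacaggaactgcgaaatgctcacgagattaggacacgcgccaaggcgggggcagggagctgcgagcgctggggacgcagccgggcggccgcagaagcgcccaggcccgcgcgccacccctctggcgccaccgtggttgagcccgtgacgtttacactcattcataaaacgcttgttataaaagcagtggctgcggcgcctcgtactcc
IL8 (CXCL8), chr4:73740319-73740568, plus strand: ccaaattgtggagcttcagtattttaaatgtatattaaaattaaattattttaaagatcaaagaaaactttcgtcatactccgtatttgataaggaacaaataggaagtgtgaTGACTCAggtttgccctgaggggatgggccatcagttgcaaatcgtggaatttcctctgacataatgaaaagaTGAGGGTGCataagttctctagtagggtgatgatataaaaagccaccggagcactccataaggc
HSPA1A, chr6:31815293-31815542, plus strand: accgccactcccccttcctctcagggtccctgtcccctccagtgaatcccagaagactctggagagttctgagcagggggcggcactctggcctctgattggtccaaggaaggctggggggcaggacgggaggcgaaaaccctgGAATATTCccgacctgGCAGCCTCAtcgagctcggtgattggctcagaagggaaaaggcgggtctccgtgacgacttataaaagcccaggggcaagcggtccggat
DUSP6, chr12:89352502-89352751, minus strand: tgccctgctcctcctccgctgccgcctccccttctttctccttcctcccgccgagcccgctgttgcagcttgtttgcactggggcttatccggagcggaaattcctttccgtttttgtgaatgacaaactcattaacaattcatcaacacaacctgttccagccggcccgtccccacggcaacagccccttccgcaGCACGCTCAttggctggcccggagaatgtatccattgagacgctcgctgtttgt
The IL8 window holds TGACTCA 137 to 131 bases before the start and TGAGGGTGC 64 to 56 bases before it. The HSPA1A window holds the heat shock match GAATATTC 106 to 99 bases before the start and GCAGCCTCA 90 to 82 bases before it, and the DUSP6 window holds GCACGCTCA 54 to 46 bases before it. The FOS window holds none of the 4 motifs. TGACTCA stood in 4.2% of 35116 RefSeq windows of this length and in 2 of the 10 windows of called higher genes, IL8 and FIGF. TGANNNNGC stood in 35.2% of all windows, in 3 of those 10 and in 5 of the 16 windows of called lower genes. The heat shock letters stood in 11.5% of all windows, in 1 of the 10 and in 3 of the 16, and TGACGTCA stood in 1.65% and in none of either. These matches are letters in a window and were not tested as sites.

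LAMB3, SFN, DUSP5 and HIST1H3H differed more between 5-FU and Ctr than in any step of TQ, by 2.91, 2.83, 1.99 and -3.35 on the log2 scale. LAMB3, the laminin 5 beta chain gene, had scaled counts of 69.2, 69.9 and 94.1 in Ctr and 191, 206 and 149 in TQ, while 5-FU, Combi and SARB all lay higher, at 603, 602 and 542, 588, 515 and 507 and 677, 545 and 468. Its pooled difference of 0.84 held a TQ step of 1.24 and steps of -0.12 and -0.05 on 5-FU. SFN, the p53-induced 14-3-3 sigma gene, had the same order of groups, with means of 1040.2 ± 90.9 in Ctr, 1827 ± 114 in TQ, 6529.9 ± 709 in SARB, 6284 ± 109.9 in Combi and 7381 ± 344 in 5-FU (SD, n = 3 each). Both calls were lost with the balanced weighting, at 0.58 and 0.30. That of SFN was also lost without Ctr replicate 2 (0.57) and with limma on the authors' normalized values (0.54). On the first cartridge SFN stood at 0.30. DUSP5, the nuclear ERK phosphatase, had means of 1067 ± 135 in Ctr, 2688 ± 66.4 in TQ, 4571 ± 384 in SARB, 3289.5 ± 136 in Combi and 4243 ± 104 in 5-FU. It was 1.33 higher in TQ than in Ctr, and Combi lay -0.37 from 5-FU. Its pooled 0.69 (adjusted p = 3.94e-07 from edgeR) was 0.60 when balanced and was still called.

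HIST1H3H (H3C10), a replication-dependent histone gene whose counts may include other H3 genes, was the converse case. Its scaled counts were 29164, 23088 and 16132 in Ctr and 20819.6, 19143 and 18756 in TQ, and 2312, 2089.5 and 2297 in 5-FU, 1861, 2158 and 1974 in Combi and 2461, 2038 and 1176 in SARB. TQ overlapped with Ctr, and the groups with 5-FU overlapped with each other. The pooled difference of -0.77 was -0.21 when balanced (adjusted p = 0.247 from edgeR), and none of the 3 steps was called.

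**Figure D3:**
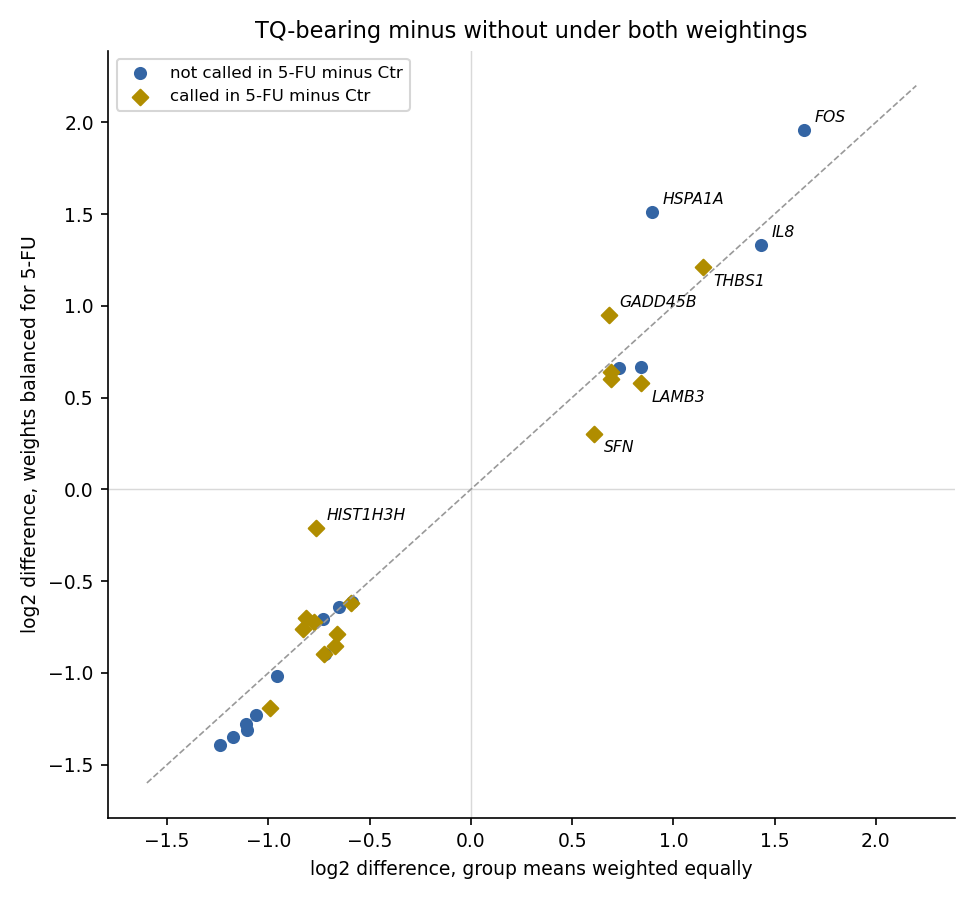
Pooled log2 difference of 30 called genes with equal group weights (horizontal) against the difference balanced for 5-FU (vertical), with diamonds for genes called in 5-FU minus Ctr and the dashed line marking equal values. HIST1H3H, SFN and LAMB3 lie toward 0 when balanced, and HSPA1A, FOS and GADD45B lie farther from it.

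Among the lower genes, 11 of 21 lay above background in all 15 samples, and these were read first. KITLG, the ligand of the KIT receptor, had scaled counts of 10041, 11082 and 12241 in Ctr, 4809, 4758 and 4296 in TQ, 3603, 3523 and 3551 in Combi and 3413, 3035 and 4063 in SARB. 5-FU lay at 4367, 4090.3 and 4213, far below Ctr as well. The pooled -0.83 (SE 0.07, adjusted p = 4.44e-08 from edgeR) held a TQ step of -1.27 and steps of -0.25 and -0.27 on 5-FU that were not called. PRKACB, a catalytic subunit of protein kinase A, ranged from 188 to 511 (median 360.4) with TQ and 319 to 875 (median 635) without it (pooled -0.82, adjusted p = 0.000132 from edgeR). H2AFX (H2AX), the histone variant phosphorylated at DNA breaks, ranged from 269 to 639.9 (median 382) and 414 to 965 (median 763) (pooled -0.78, adjusted p = 0.000815 from edgeR). For PRKACB and H2AFX all 3 steps lay below 0, at -0.82, -0.55 and -0.61 and at -1.02, -0.61 and -0.23, and only the TQ step of each was called. The pooled call of PRKACB was lost in DESeq2 (-0.62, adjusted p = 0.0562). On the first cartridge, which held no Combi sample and 1 Ctr sample, H2AFX stood at -0.63 and was not called.

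DDIT4, ETV1 and WNT16 were low in TQ and not in Combi or SARB relative to 5-FU. DDIT4 encodes the mTORC1 inhibitor REDD1, and its scaled counts were 583, 438 and 354 in Ctr, 165, 207 and 256 in 5-FU, 126, 114 and 108 in TQ, 240.3, 316 and 311 in Combi and 193, 250.5 and 154 in SARB. All TQ samples lay below all others. 5-FU itself stood -1.13 from Ctr for DDIT4, -1.28 for ETV1 and -0.73 for WNT16. The TQ step was -1.99 for DDIT4, -1.81 for ETV1, an ERK-responsive ETS factor gene, and -1.77 for the WNT ligand gene WNT16. The Combi steps were 0.48, 0.41 and 0.26 and the SARB steps -0.09, 0.07 and -0.14, none called. The pooled differences were -0.72, -0.66 and -0.67, and that of ETV1 was not called without Ctr replicate 3 (-0.53). After TMM they were -0.53, -0.44 and -0.46, none past the fold asked for. CACNA2D2, a calcium channel subunit gene, and FANCF, of the Fanconi DNA repair pathway, stood at -0.59 and -0.59, and each call was lost without any 1 of 7 samples and after TMM (-0.36 and -0.37), and that of FANCF also with cartridge as a block (-0.42).

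A further 8 lower genes were not above background in every sample. DKK4 and DKK2 encode secreted WNT inhibitors, WNT10A a WNT ligand, PPP2R2B a phosphatase 2A subunit, GRIA3 a glutamate receptor subunit, GATA1 a blood lineage factor, SHC3 an adaptor protein and MAML2 a Notch coactivator. DKK4 had scaled counts of 24.6, 56.4 and 44.8 in Ctr, 15.2, 23.7 and 29.6 in 5-FU, 15.2, 4.93 and 9.09 in TQ, 40.4, 15.5 and 17.0 in Combi and 12.0, 20.4 and 3.94 in SARB. WNT10A had 38.4, 36.3 and 50.8 in Ctr and 41.2, 40.2 and 51.9 in 5-FU against 8.77 to 38.4 (median 26.1) over the TQ-bearing samples, of which only Combi replicate 1 reached the range without TQ. These 8 genes had pooled differences of -0.72 to -1.24, beside the -0.81 of the scaled negative probes. SHC3 was below background in all 15 samples, and DKK2, PPP2R2B, GRIA3, GATA1 and SHC3 were above it in fewer than 9. With counts under 20 set to 20, none of the 8 was called. The part of the background in these values was not tested.

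The pathway lists held few called genes each, beside 1.51% of all genes higher and 2.88% lower. Of 13 genes of ERK feedback on the panel, DUSP5 was called higher and DUSP6 and ETV1 lower, and the list's median of -0.04 stood beside -0.20 for all genes. The related DUSP4, SPRY2 and SPRY4 had pooled values of -0.04, -0.26 and 0.01. Of 53 WNT genes 4 were called lower and none higher (median -0.25), and of 33 genes of calcineurin, protein kinase A and CREB signaling 2 were lower (median -0.47). Of 25 genes of PI3K, AKT and mTOR signaling 3 were lower (median -0.18), of 38 DNA repair genes 2 were lower (median -0.08), and of 44 chromatin genes 1 was lower (median -0.14). Among 44 genes of extracellular matrix and integrins THBS1, LAMB3 and SPP1 were higher (median -0.26), and among 49 of NF-kB, TNF and interleukins IL8 and TNFAIP3 were (median -0.15). FOS was the 1 of 7 immediate-early genes called (median 0.41). Its relatives JUN and FOSL1 had pooled values of 0.49 and 0.42, and NR4A1 0.41. GADD45B was higher and DDIT4 lower among 5 GADD45 and integrated stress genes, where the factor gene DDIT3 stood at 0.52 and GADD45A at 0.35. Of 67 growth factors and receptors FIGF was higher and KITLG lower (median -0.36), and of 25 Notch genes MAML2 was lower (median -0.15). None of 46 cell cycle regulators, 18 DNA replication factors, 16 BCL2 family and caspase genes, 32 genes of TGF-beta, activin and BMP signaling or 13 of the JNK and p38 cascade was called by edgeR, with 230 of all 730 genes at an unadjusted p under 0.05. Their medians were -0.22, -0.10, -0.03, -0.29 and -0.12. Of 24 genes of the RAS, RAF and ERK core SHC3 was called lower (median -0.19). Of 16 p53-induced genes SFN and THBS1 were higher (median 0.35), and of 5 chaperone genes HSPA1A was (median 0.47). The p53 list had a median of 1.35 in 5-FU minus Ctr, part of which stayed in the pooled value. With the balanced weighting its median was 0.05, with 1 gene called higher. That of the chaperone list was then 0.81, beside -0.24 for all genes. Of the epithelial markers LAMB3 and SFN were higher, and no mesenchymal, haematopoietic or endothelial marker was called. A single target of the antioxidant factor NRF2 was on the panel, and it was not called.

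The 3 TQ steps are given one by one. The pooled contrast is their mean plus 16.7% of the difference between 5-FU and Ctr. Combi and SARB brought 35 µM of 5-FU against 15 µM in 5-FU alone, so their steps also hold a rise in 5-FU dose. From Ctr to TQ, 25 genes were called higher (3.42%) and 158 lower (21.6%), with a median of -0.47. After TMM, which puts that median at -0.02, 79 were higher and 44 lower. From 5-FU to Combi, 56 were higher (7.67%) and 30 lower (4.11%), with a median of 0.17, and after TMM (median 0.07) 41 were higher and 46 lower. With cartridge as a block 13 genes were higher and 26 lower in the TQ step, and 1 and 0 in the Combi step. From 5-FU to SARB, none was higher and 9 were lower (1.23%) by edgeR, with 87 genes at an unadjusted p under 0.05. After TMM and in DESeq2 no gene was called in the SARB step, with 73 and 59 genes at an unadjusted p under 0.05. The 9 were DUSP6, the integrin and laminin genes ITGB4 (-0.86), ITGB8 (-0.69) and LAMA3 (-0.63), the nerve growth factor receptor gene NGFR (-0.63), the morphogen gene BMP4 (-0.61), CDK2 (-0.74), IDH2 (-0.68) and PRDM1 (-0.79), named after their values were seen. Over the 405 genes above background in all samples, the root mean square log2 difference of group means was smallest for SARB and 5-FU, at 0.271, and largest for TQ and Combi, at 0.852. It was 0.591 for Ctr and TQ and 0.478 for 5-FU and Combi. Pairs of samples within a group gave 0.155 to 0.479, but these are single samples, which spread more than means of 3. The within-group range is therefore not directly comparable with the differences of group means. SARB and 5-FU were on 1 cartridge, and Combi and 5-FU were not. Scaled negative probes moved by -1.49 from Ctr to TQ, -0.05 from 5-FU to Combi and -0.56 from 5-FU to SARB on the log2 scale.

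Whether the TQ step was the same on 5-FU as alone was tested as a difference of steps. The mean step on 5-FU minus the step alone was called higher in 133 genes (18.2%) and lower in 38 (5.21%), with a median of 0.54. After TMM the split turned to 38 higher and 93 lower, and with cartridge as a block the counts were 2 and 3. Without TQ replicate 2 the count of higher genes was 83. The lowest called values were those of HSPA1A (-4.25, and -4.67 after TMM), HSPA2 (-2.60 and -3.01) and GADD45B (-2.21 and -2.61). With cartridge as a block GADD45B was still called (-1.53, adjusted p = 0.0394 from edgeR), while HSPA1A (-4.53, adjusted p = 0.0776) and HSPA2 (-1.77, adjusted p = 0.441) were not. HSPA2, a testis-enriched HSP70, had 107, 63.0 and 75.8 scaled counts in TQ against 14.8 to 27.2 (median 26.6) without TQ, 18.2, 19.2 and 22.9 in Combi and 21.4, 22.8 and 13.1 in SARB. The largest values above 0, LRP2 (3.58), CACNG6 (3.19) and COL5A1 (3.05), encode an endocytic receptor, a calcium channel subunit and a collagen. With counts under 20 set to 20 they were -0.22, -0.055 and 0.26, and with cartridge as a block 1.39, 0.42 and -0.32, none called. The LRP2 call was also lost without any 1 of 8 samples and after TMM (3.06, adjusted p = 0.0578), and that of CACNG6 without Ctr replicate 3 (2.78) or TQ replicate 2 (2.39). Each gene was above background in 5 samples or fewer, and Ctr replicates 2 and 3 held 29.6 and 40.3 for LRP2 against 7.69 in Ctr replicate 1. The negative probes moved by 1.19 in the same contrast, and their part was not tested.

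Free and bound TQ were then compared directly. The mean of TQ and Combi minus SARB was called higher in 30 genes (4.11%) and lower in 25 (3.42%), with a median of 0.08 and a log2 ratio of 0.11 in the negative probes. With cartridge as a block the counts were 18 and 15. TQ held no 5-FU and a higher dose, so the 2 component differences are given apart, and both share the SARB samples. For the 30 higher genes TQ and Combi both lay above SARB, and 21 were called in TQ minus SARB (5.62% of all genes) and 16 in Combi minus SARB (11.2%). For the 25 lower genes 20 had both on 1 side, and these 20 made up 2.74% of the panel. How many of all genes had both on 1 side was not counted. Of the 25, 23 were called lower in TQ minus SARB (13.8% of all genes) and 2 in Combi minus SARB (0.959%). Of those 25, 20 were called higher in 5-FU minus Ctr, where 10.1% of all genes were, and of the 30 higher genes 15 were called lower there (10.1%).

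**Figure D4:**
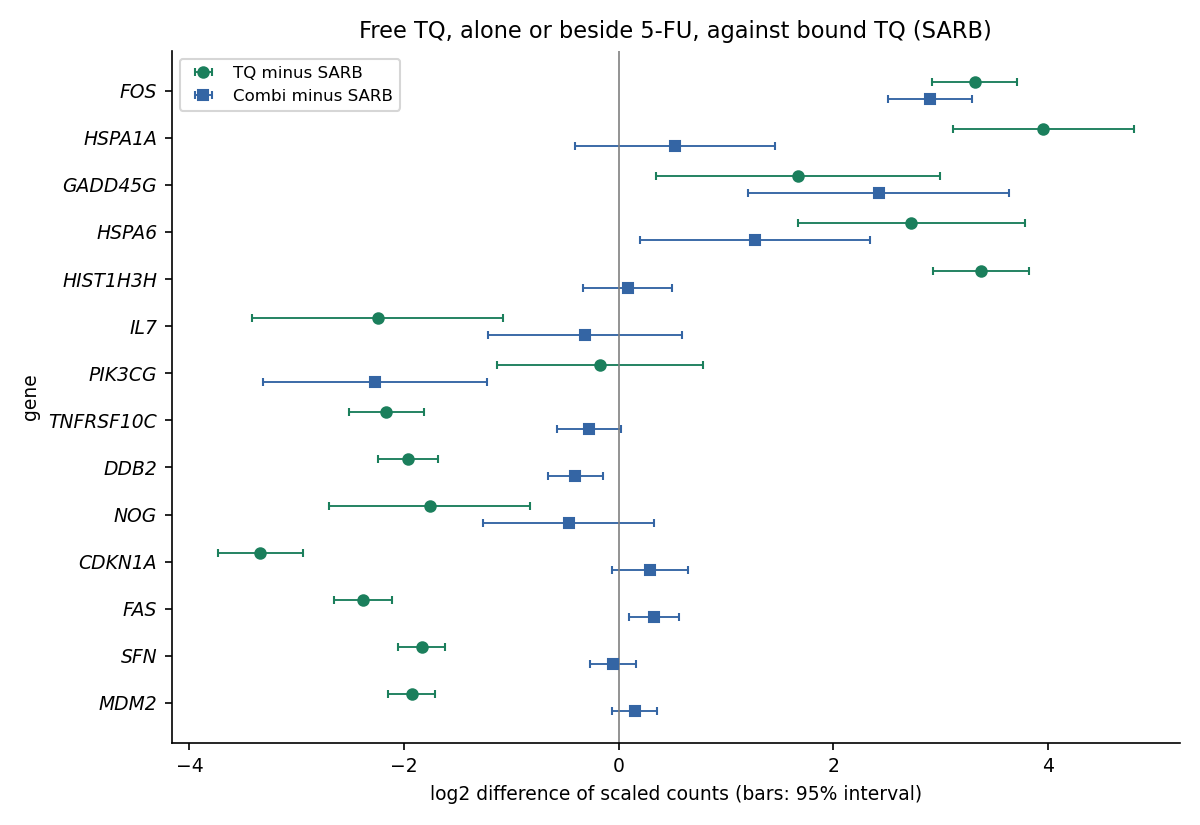
Log2 difference of TQ minus SARB (circles) and Combi minus SARB (squares) with 95% intervals for genes named in the comparison of free and bound TQ. FOS lies right of 0 in both, and CDKN1A, FAS, SFN and MDM2 lie left of 0 in TQ and near 0 in Combi.

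FOS led with 3.11, made of 3.32 for TQ minus SARB and 2.90 for Combi minus SARB. GADD45G, a relative of GADD45B, stood at 2.04 (adjusted p = 0.0163 from edgeR) on scaled counts of 0.857, 5.99 and 2.19 in SARB, 10.9, 10.4 and 4.55 in TQ and 14.1, 15.5 and 14.9 in Combi. It was above background in 3 samples. The call was lost without SARB replicate 1 or 3, with counts under 20 set to 20 (0.39) and with cartridge as a block (1.03, adjusted p = 0.607). Of 5 chaperone genes on the panel 4 were higher with free TQ, namely HSPA1A (2.24), HSPA6 (2.00), HSPA2 (1.12) and HSP90B1 (0.68), beside 4.11% of all genes. With counts under 20 set to 20 HSPA6 was not called (0.57, adjusted p = 0.401 from edgeR). With cartridge as a block HSPA1A was not called (1.91, adjusted p = 0.134 from edgeR). HSPB1, the fifth, stood at 0.53. HSPA6, a strictly inducible HSP70, had 23.9, 36.2 and 37.9 in TQ, 12.1, 11.2 and 12.8 in Combi and 4.28, 9.59 and 2.62 in SARB, and was above background in 3 samples. In Combi minus SARB none of the 5 was called, with 0.52 (95% interval -0.41 to 1.46) for HSPA1A and 1.27 (0.20 to 2.34) for HSPA6. HIST1H3H (1.73), high in Ctr as well, stood at 3.37 in TQ minus SARB and 0.08 in Combi minus SARB.

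Of 16 p53-induced genes, 9 were lower with free TQ, beside 3.42% of all genes, and 14 of the 16 were called higher in 5-FU minus Ctr. CDKN1A, the cell cycle inhibitor p21, stood at -1.52, with scaled counts of 468, 477 and 441 in TQ, 5197, 6113 and 5864 in Combi and 3733, 5352 and 4942 in SARB. All Combi and SARB samples were thus above all TQ samples, and Combi minus SARB was 0.29 (95% interval -0.06 to 0.65). The death receptor gene FAS stood at -1.03, MDM2, the ubiquitin ligase of p53, at -0.89 and SFN at -0.95, with Combi minus SARB at 0.33 (0.09 to 0.56), 0.15 (-0.06 to 0.36) and -0.05 (-0.27 to 0.16). For TNFRSF10C, a decoy receptor of TRAIL, and DDB2, a damage sensor of nucleotide excision repair, the Combi mean lay between those of TQ and SARB. DDB2 had 353, 298 and 276 in TQ, 935, 883 and 894 in Combi and 1310.2, 1196 and 1087 in SARB, and 5-FU had 1582, 1629.5 and 1623. Its difference was -1.18 overall and -0.41 (adjusted p = 0.0274 from edgeR) in Combi minus SARB. TNFRSF10C stood at -1.22 and -0.28. IL7 (-1.28), PIK3CG (-1.22) and NOG (-1.11), of low counts, were lost without any 1 of 9, 11 and 7 samples, and with counts under 20 set to 20 they stood at 0.23, -0.46 and -0.34. With cartridge as a block none of them was called, and PIK3CG stood at -0.012. PIK3CG was -2.27 in Combi minus SARB, which shared no cartridge, and -0.17 in TQ minus SARB.

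Combi and SARB, at a nominal 35 µM of each unit, were the 1 pair of matched dose. Combi was higher in 82 genes (11.2%) and lower in 7 (0.959%) by edgeR, with a median of 0.32 on the log2 scale. After TMM (median 0.06) 54 were higher and 39 lower, in DESeq2 (median -0.01) 40 and 48, and with cartridge as a block 1 and 0. Among the genes called in the pooled contrast, FOS (2.90), IL8 (1.28), SPP1 (1.19) and FIGF (1.20) were higher in Combi than in SARB. So were CACNA2D2 (0.67), GATA1 (1.70) and SHC3 (1.78) of the lower genes. Not called were, among others, THBS1 with -0.06 (95% interval -0.37 to 0.25), DUSP6 with -0.24 (-0.54 to 0.06), STMN1 with -0.14 (-0.36 to 0.08), KITLG with 0.02 (-0.21 to 0.25) and GADD45B with 0.16 (-0.16 to 0.49). No cartridge held both Combi and SARB, so cartridge and treatment cannot be told apart within any 1 cartridge for this pair.

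Set against the same samples without TQ, free TQ had 12 genes called higher and 12 lower (1.64% each) and bound TQ 19 higher (2.6%) and 47 lower (6.44%). After TMM these were 28 and 3 for free TQ and 55 and 15 for bound TQ. Without Combi replicate 1 free TQ had 26 lower genes, and 21 without SARB replicate 3. Bound TQ had 128 lower genes without SARB replicate 2 and 27 without SARB replicate 3. For free TQ, 3 of the 5 chaperone genes were higher and 1 p53-induced gene, THBS1, was higher and 1, DDB2, lower. For bound TQ, 9 of the 16 p53-induced genes and no chaperone gene were higher. Because SARB is set here against a mean of Ctr and 5-FU, its values hold part of the 5-FU change: CDKN1A stood at 1.30 against that mean and at 0.21 against 5-FU. IL8 and THBS1 were 1.65 and 1.20 higher with free TQ and 1.00 and 1.04 higher with bound TQ. DUSP6 was -0.76 and -0.66, KITLG -0.76 and -0.97, STMN1 -0.67 and -0.60, and PRKACB -0.68 and -1.08, each called in its own comparison, and the samples without TQ are shared by both. The free minus bound differences of IL8, THBS1, DUSP6, KITLG, STMN1 and PRKACB were 0.65 (95% interval 0.14 to 1.17), 0.16 (-0.11 to 0.43), -0.10 (-0.36 to 0.16), 0.21 (0.01 to 0.41), -0.07 (-0.26 to 0.12) and 0.40 (0.02 to 0.77), none called.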

How the data were processed

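RNA of 15 HCT116 cultures (50 ng each) was counted on the nCounter PanCancer Pathways panel. The deposited table of raw counts, not normalized, was the basis of every test. The deposited normalized values are a background-corrected signal that the authors made in nSolver 3.0, and they follow from the raw counts by subtracting the geometric mean of the negative probes and scaling. A further deposited table holds fold changes and p-values of the study's own comparisons and was not used. Raw counts were scaled to the housekeeping geometric mean and fitted with 1 mean per group in edgeR 4.0.16 (R 4.3.3, quasi-likelihood), Benjamini-Hochberg adjusted over 730 genes, with no filter on low counts. Alternatives were TMM, DESeq2 1.42.0, limma 3.58.1 on the normalized signal, a low-count filter and counts under 20 set to 20. Others were cartridge and replicate number as blocks, the first cartridge only, another weighting and leaving out each sample. The low-count filter kept the 599 genes above background in 3 or more samples. Scripts were tested on simulated data. Total endogenous counts of 135017 to 607782 limit the precision of genes under 20 counts, 85 to 344 per sample.

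Genes were named by rule: called genes without overlap between samples with and without TQ, the 5 largest called differences per direction between free and bound TQ, the 3 largest called members of each of 24 lists, and the 3 largest per direction in the difference of steps. A gene below background in all samples was left out by that rule. SHC3 and the other named genes outside it were named after their values were seen. The members and lists were chosen with earlier results of these data known. A few genes are not reported here.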

Additional observations from a re-analysis of the deposited data

Results flagged for a closer look

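For 21 of the named genes the mean step of TQ on 5-FU differed from the step without 5-FU by a test of the difference itself (edgeR's quasi-likelihood test, 18.2% of all genes called higher and 5.21% lower). LRP2, CACNG6, COL5A1, HSPA1A, HSPA2 and GADD45B met the naming rule for the largest called values of this same contrast. Their calls here were thus fixed in advance, and the count of 21 cannot be set against the shares of all genes. Groups of 3 samples were not tested for single outlying samples.

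The difference on the log2 scale was below 0 for the stress genes HSPA1A (-4.25), HSPA2 (-2.60), GADD45B (-2.21) and FOS (-1.49), for the secreted THBS1 (-1.71), and for DUSP5 (-1.46), LAMB3 (-1.33), SFN (-1.02) and TNFRSF10C (-0.89). It was above 0 for KITLG (1.01), CACNA2D2 (1.03), DDIT4 (2.18), ETV1 (2.05) and WNT16 (1.82), all above background in 15 samples. It was also above 0 for genes that were not, namely MAML2 (1.97), GRIA3 (2.32), PPP2R2B (2.56), IL7 (2.68), COL5A1 (3.05), CACNG6 (3.19) and LRP2 (3.58). The scaled negative probes stood at 1.19 in this contrast, and their part in the values was not tested. Over the whole panel, 2 genes were called higher and 3 lower with cartridge as a block, and 38 and 93 after TMM. Most of the calls listed here were thus lost under the cartridge block. With counts under 20 set to 20 the values of LRP2 and CACNG6 were -0.22 and -0.055, with cartridge as a block that of COL5A1 was -0.32, and the LRP2 call was lost without any 1 of 8 samples.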

How the results depend on the processing

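For TQ-bearing samples (11 higher, 21 lower) the called genes were 30 and 7 after TMM and 28 and 8 in DESeq2. With counts under 20 set to 20, 10 were lower, and limma on the normalized signal gave 17 higher. For free TQ they were 28 and 3 after TMM and 22 and 6 in DESeq2, with 7 higher with counts under 20 set to 20, 6 with cartridge as a block and 20 in limma. For bound TQ they were 55 and 15 after TMM and 54 and 13 in DESeq2, with 27 lower with the cartridge block and 26 in the first cartridge only. Free against bound TQ gave 18 and 15 with the cartridge block, 82 and 7 for Combi minus SARB and 101 lower for TQ minus SARB. The difference of steps gave 38 and 93 after TMM, 32 and 103 in DESeq2 and 2 and 3 with the cartridge block. No gene was called lower in all 3 steps under TMM, DESeq2 or the cartridge block. Leaving out 1 sample gave 8 to 11 higher and 12 to 79 lower genes for TQ-bearing samples, 9 to 15 and 11 to 26 for free TQ, 16 to 22 and 27 to 128 for bound TQ, 22 to 39 and 20 to 29 for free against bound, 83 to 195 and 32 to 56 for the difference of steps, and 0 to 1 lower in all steps. Signs turned for IL7 (0.23), LRP2 (-0.22) and CACNG6 (-0.055) with counts under 20 set to 20 and for COL5A1 (-0.32) with the cartridge block, and the cause was not tested. Of the single-gene values under the other settings, 289 kept direction and call and 125 kept only the direction. The replicate numbers showed no clear pairing of the samples, which does not exclude one. Of 30 same-number pairs 10 had a correlation over 0.1 (-0.50 to 0.47), and 4 samples correlated best with their own number. With replicate number as a block 9 genes were higher and 14 lower with TQ. Genes under 20 counts are limited by depth.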
